A study of Rattus norvegicus with 6 samples.

Results

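Accessible chromatin sites (ACS) lying in intergenic DNA, more than 100 kb and up to 500 kb from the nearest gene, were compared between islets of adult rats and of pups at postnatal day 10 (P10). The sites were chosen by position alone. They were the distinct ACS that the authors' table puts in the distal class, upstream or downstream of the nearest gene, with a shortest distance to that gene within those limits. Of 101603 distinct ACS, 23639 (23.3%) met the rule, with 13893 upstream and 9746 downstream of a total of 3203 nearest genes. The nearest gene is the authors' assignment, and 2239 of the sites overlap another gene listed in the same table while a further 806 lie within 100 kb of one. These sites are kept here, and 20594 sites have no listed gene within 100 kb.

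ATAC-seq reads open chromatin from the places where the Tn5 transposase can insert sequencing adapters, so the value of a site is its number of Tn5 integrations. The adult group was 3 male Sprague-Dawley rats, aged 3 months in the paper, with 1 library per rat, labelled replicates 4, 5 and 6. The P10 group was 3 litters of Sprague-Dawley pups of both sexes, with the islets of a few pups of a litter pooled in 1 library each, labelled replicates 1, 2 and 3. No transgene, diet or drug separates the groups. The paper describes pup pancreases digested by hand shaking in collagenase, and adult ones by collagenase injected in the duct with a longer digestion. Age, sex composition, digestion and single rats against pooled litters differ together and cannot be told apart. The islets were hand-picked and dissociated, and the cells were not sorted, so that a change in the make-up of cell types and a change within a cell type cannot be told apart in these bulk libraries.

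Distal accessible sites are mostly candidate enhancers, short stretches of DNA that bind transcription factors and act on promoters over a distance by folding of the chromatin. Genes of development and of cell identity often stand beside long intergenic stretches that hold many such sites, and the gene that a site acts on need not be the nearest. In rodent islets the first weeks after birth are the time when beta cells lose much of their capacity to divide and acquire insulin secretion in response to glucose.

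Integrations inside ACS numbered 7916919 to 11903909 in the adult libraries and 13491534 to 21168463 in the P10 libraries, and the median count of an intergenic site at 100 to 500 kb was 31 to 41 in adult and 53 to 75 in P10 libraries. Promoter sites of endocrine genes were open in all libraries, with a summed level of 356 to 478 CPM (counts scaled by the size of each library) in adults and 427 to 619 CPM at P10 over the 17 of 22 endocrine markers that have a site of the transcription start site (TSS) class. Summed promoter sites of Schwann and neural crest markers (4 of 13 genes) were at 25.1 to 34.2 CPM in adults and 38.1 to 42.4 CPM at P10. Those of immune markers (3 of 24 genes) were at 36.6 to 45.8 CPM in adults and 29.8 to 32.6 CPM at P10. Neither sum overlapped between the ages, but the immune sum was carried by *Cd74* (log2 fold change 0.93, Up), while sites of *Coro1a* (-0.94) and *Ikzf1* (-0.71) were Down and the median of the immune sites was -0.47. The defining immune marker *Ptprc* and the Schwann marker *Sox10* had no TSS site, and the part of these cells in the results below was not tested. Acinar (3 of 27 genes), duct (13 of 18), endothelial (7 of 22) and mesenchymal (12 of 28) promoter sums overlapped between the ages. These sums held single sites that were called. Of 15 duct sites, *Sox9* (-0.74), *Cftr* (-0.73) and *Muc1* (-0.57) were Down and 1 of *Onecut1* (0.59) was Up. Of 7 endothelial sites (median -0.28), *Flt4* (-0.83) and *Cldn5* (-0.68) were Down and *Ets1* (0.40) was Up. Of 15 mesenchymal sites 1 was Down, and no acinar site was called.

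Intergenic sites at 100 to 500 kb were more often Up than Down with age, except when libraries were scaled by their total reads. With edgeR's quasi-likelihood test, at a p-value under 0.05 and a false discovery rate (FDR) under 0.2 over all ACS, 3240 sites (13.7%) were Up, that is more accessible in adults, against 12.3% of all ACS. Another 1456 (6.16%) were Down, that is more accessible at P10, against 6.63% of all ACS. The remaining 18943 passed neither. Both shares therefore lay near the background of the whole series. The paper, with its own edgeR fit at these limits, reports the opposite split over all ACS, with more Down than Up. The reason for this difference was not tested. The median log2 fold change of adult over P10 was 0.04, with an interquartile range of -0.30 to 0.36, beside a median of -0.01 over all ACS. All 3 adult libraries were above all 3 P10 libraries at 15.1% of the sites, against 13.8% of all ACS, and below them at 9.63%, against 10.9%.

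The split between both directions moved with the scaling of the libraries. Up calls made up 69.0% of the called sites with TMM factors, 56.1% (2715 Up, 2123 Down) with column sums alone and 80.7% (4033 Up, 964 Down) with factors taken from TSS sites only. With the total reads of each library as library size, 331 sites were Up and 12732 Down, and the median of all ACS stood at -0.841. Those totals count all reads of a library, poorly mapped ones included. They overlapped between the ages, while integrations in ACS were fewer in every adult library than in any P10 library. The median of the intergenic sites lay above that of all ACS by 0.046 to 0.055 on the log2 scale under these scalings. A change of scaling moves all sites by about the same amount, so this gap could hardly differ between scalings. This gap moved with single libraries, and it was 0.092 without adult replicate 4, 0.021 without adult replicate 5, 0.019 without adult replicate 6, 0.003 without P10 replicate 1 and 0.088 without P10 replicate 3. No site called in one direction was called in the other under these scalings, although fold changes did turn at some called sites with total reads. Of the 34 called sites named below, 17 lost their call with total reads and 4 of these turned in sign.

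The distance from the gene hardly separated the sites. Up sites were 13.8% of the 11384 sites at 100 to 200 kb, 13.8% of the 6047 at 200 to 300 kb, 14.2% of the 3812 at 300 to 400 kb and 12.2% of the 2396 at 400 to 500 kb. Down sites were 6.11% to 6.20% in these 4 ranges. Intergenic sites up to 100 kb from a gene had 12.6% Up and 6.69% Down, and those beyond 500 kb had 11.2% Up and 5.93% Down. TSS sites stood apart, with 2.73% Up and 7.87% Down. Sites upstream of the gene had 14.1% Up and 6.31% Down, and sites downstream 13.2% Up and 5.95% Down. Sites with no listed gene within 100 kb had 13.7% Up and 6.06% Down, and sites that overlap another listed gene had 13.8% and 6.92%.

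**Figure D1:**
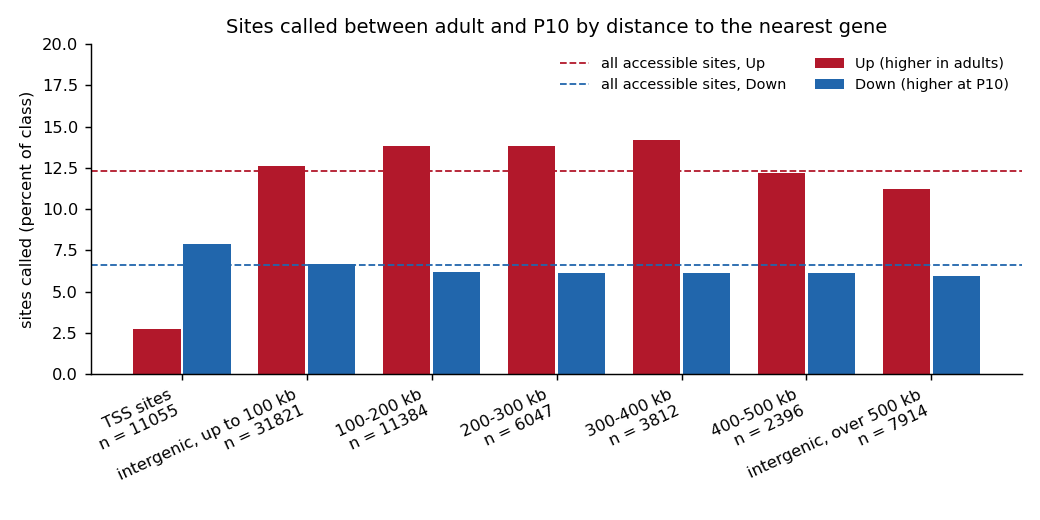
Percent of sites called Up (red) or Down (blue) between 3 adult and 3 P10 libraries, by distance of the site from the nearest gene, with the number of sites under each class. Dashed lines give the shares over all ACS (12.3% Up, 6.63% Down). The 4 ranges from 100 to 500 kb differ little among themselves, and TSS sites have few Up calls.

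Nearest to the limits of the rule stood 4 sites, none of which was called. Just inside the lower limit was a site 100005 bp from *Il13ra2* (log2 fold change -0.21), and just outside it a site 99989 bp from *Slco1c1* (-0.17). Just inside the upper limit was a site 499919 bp from *Cobl* (0.18), and just outside it a site 500162 bp from *RGD1312005* (0.16).

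Up sites stood above the rest in level, and sites of both directions were wider. Up sites had a median mean level of 8.37 CPM and a median width of 406 bp. Down sites had 3.28 CPM and 382 bp, and sites passing neither test 3.39 CPM and 342 bp. The median distance from the gene was about the same in the 3 groups, at 205063.5, 205427.5 and 205620 bp. Among Up sites 1285 changed over 2-fold and 62 over 4-fold. Among Down sites 648 changed over 2-fold and 33 over 4-fold. The fold changes ran from -3.48 to 2.94 on the log2 scale.

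Up calls followed the counting depth. When all ACS were divided into 10 groups of equal size by mean count, Up calls among the intergenic sites at 100 to 500 kb rose from 0.308% in the lowest group (mean counts up to 19.3) to 29.7% in the ninth and 26.0% in the highest (mean counts over 306). In these ninth and highest groups, intergenic sites up to 100 kb had 23.5% and 19.4% Up, and all other ACS together had 18.7% and 11.1%. Down calls showed no such rise, with 3.90% to 7.44% over the 10 groups. The median log2 fold change of the sites went from -0.17 in the lowest count group to 0.22 in the ninth. A mean count under 20 was found at 14.6% of the sites. In the lowest count group, where the median standard error was 0.48 on the log2 scale, 4.90% were Down, and 0.308% Up.

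**Figure D2:**
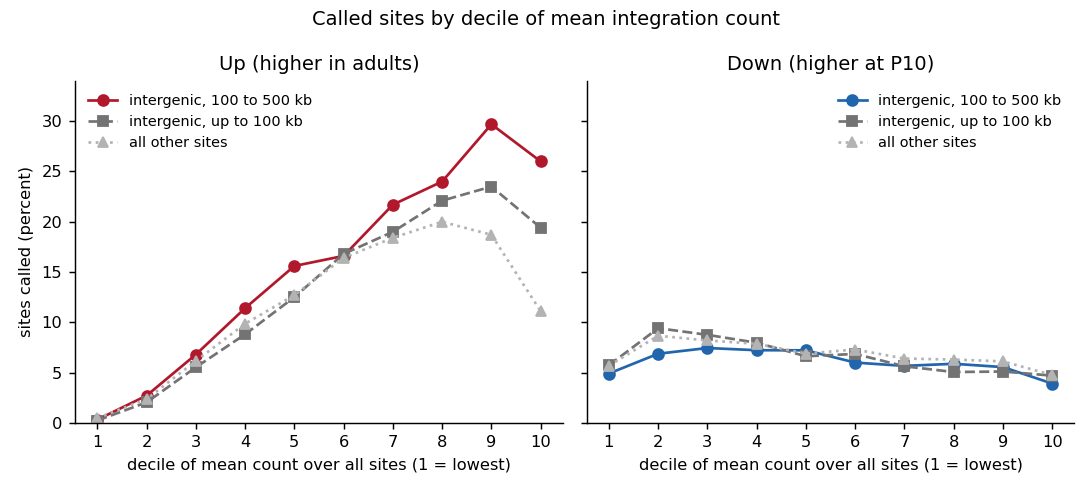
Percent of sites called Up (left) and Down (right) in 10 groups of equal size by mean count over all ACS, for intergenic sites at 100 to 500 kb (coloured circles), intergenic sites up to 100 kb (grey squares) and all other ACS (light triangles). In the ninth group Up calls reach 29.7%, 23.5% and 18.7%.

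Seen per library, the share of integrations in these sites did not separate the ages. They held 17.5%, 18.5% and 19.0% of the integrations in ACS in the adult libraries (mean 18.3% ± 0.732, SD, n = 3) and 16.3%, 17.2% and 18.0% in the P10 libraries (17.2% ± 0.824, n = 3). The groups overlapped, and the difference of 1.19 percentage points had p = 0.2 in a two-sided exact permutation test over the libraries, where 0.1 is the smallest p possible. The log2 ratio of integrations in these sites to those in intergenic sites up to 100 kb was -0.525 ± 0.0643 in adults and -0.587 ± 0.0924 at P10 (n = 3 each, exact permutation p = 0.5). Against TSS sites the log2 ratio was -0.473 ± 0.103 in adults and -0.717 ± 0.101 at P10, a difference of 0.244 without overlap of the groups (exact permutation p = 0.1, the smallest possible). The libraries correlated by 0.909 to 0.923 within adults, 0.936 to 0.948 within P10 and 0.878 to 0.903 between the ages over log2 CPM at these sites, which are correlations across sites of 6 libraries.

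The sites named first were chosen as those with the smallest p-values among called sites whose groups do not overlap, so that the lack of overlap is part of the choice. The 6 Up sites had log2 fold changes of 2.49 to 2.93. They are named by the nearest gene, with coordinates of the Rn5 assembly. The first was the site downstream of *A1bg*, the gene of a plasma glycoprotein (chr7:102739685-102740196, 125752 bp from the gene). It had 53.8, 37.6 and 52.7 CPM in adults and 6.65, 9.06 and 7.56 CPM at P10, with a log2 fold change of 2.64 (SE 0.20, FDR = 7.40e-09). All 3 adult values were far above all P10 values. The same site lies 417256 bp from *Myc*, a gene of cell growth and division.

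The second lay 157525 bp upstream of *Zmynd11*, a chromatin reader, and within the listed gene *Chrm3*, a muscarinic acetylcholine receptor (chr17:65834398-65834697). It had 23.5, 19.2 and 19.5 CPM in adults and 2.65, 2.5 and 2.96 CPM at P10, a log2 fold change of 2.93 (SE 0.24, FDR = 1.98e-08). Another lay 347535 bp upstream of *Arrdc3*, of the arrestin-like family (chr2:8270134-8270457), with 25, 27.5 and 25.8 CPM in adults and 3.53, 3.49 and 4.81 CPM at P10 (log2 fold change 2.72, SE 0.22, FDR = 2.14e-08). In both, the adult libraries stood together far above the pups.

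Upstream of *Cxcr4*, a chemokine receptor, a site at 395275 bp (chr13:50793307-50793746) had 30.5, 28.0 and 31.1 CPM in adults and 5.53, 5.49 and 4.86 CPM at P10 (log2 fold change 2.49, SE 0.21, FDR = 2.14e-08). By the gene order of the RefSeq annotation the next gene on its other side is *Thsd7b*, 441763 bp away in the table, so that the site sits near the middle of the interval. Neither *Cxcr4* promoter site was called, with log2 fold changes of -0.05 (SE 0.25) and -0.14 (SE 0.25).

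A site 226110 bp upstream of *Klhl14*, of the kelch-like family (chr18:12654784-12655200), had 26.4, 24.1 and 28.6 CPM in adults and 4.79, 2.78 and 3.70 CPM at P10 (log2 fold change 2.79, SE 0.23, FDR = 2.41e-08). The site 439784 bp upstream of *Avpr1a*, a vasopressin receptor (chr7:67972066-67972361), had 15.9, 20.2 and 22.3 CPM in adults and 2.46, 3.00 and 3.28 CPM at P10 (log2 fold change 2.74, SE 0.25, FDR = 8.38e-08). Here one *Avpr1a* promoter site went the other way, at 6.07 ± 0.247 CPM in adults and 10.4 ± 1.96 CPM at P10 (n = 3 each, log2 fold change -0.77, FDR = 0.0474).

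The 6 Down sites had changes of smaller size than the 6 Up sites. A site 293176 bp downstream of *Sema3d*, a secreted semaphorin of axon guidance (chr4:18875241-18875883), had 8.4, 6.23 and 11.9 CPM in adults and 22, 25.7 and 29.6 CPM at P10 (log2 fold change -1.56, SE 0.23, FDR = 4.27e-05). The next gene on its other side, 520699 bp away, is another semaphorin gene, *Sema3a*. A site 446112 bp upstream of *Scel*, which encodes a protein of the cornified envelope (chr15:90754558-90755185), had 1.17, 2.73 and 2.96 CPM in adults and 11.2, 7.77 and 9.04 CPM at P10 (log2 fold change -2.05, SE 0.32, FDR = 8.06e-05). The promoter site of *Scel* was called in the other direction (log2 fold change 0.51, SE 0.16, FDR = 0.0519).

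A site 367607 bp downstream of *Ccdc7a* (chr4:47366294-47366673) had 6.78, 5.84 and 6.83 CPM in adults and 16.7, 20.8 and 16 CPM at P10 (log2 fold change -1.46, SE 0.23, FDR = 8.76e-05). A site 210964 bp from *Rfk*, riboflavin kinase, lies within the listed gene *Pcsk5*, a proprotein convertase (chr1:243587077-243587787). It had 7.50, 7.60 and 6.70 CPM in adults and 14.8, 17.7 and 23.6 CPM at P10 (log2 fold change -1.36, SE 0.23, FDR = 0.000242). The adult values were close together in both sites, and the P10 values were all higher.

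A site 390683 bp upstream of *Wac* (chr17:63113766-63114225) had 0.813, 0.876 and 1.55 CPM in adults and 3.16, 8.49 and 4.81 CPM at P10, the widest spread of the 6 Down sites relative to its mean (log2 fold change -2.36, SE 0.41, FDR = 0.000312). A site 178344 bp upstream of *Adcy1*, an adenylyl cyclase, had 5.78, 6.14 and 5.41 CPM in adults and 16.8, 15 and 12.1 CPM at P10 (chr14:80767940-80768809, log2 fold change -1.34, SE 0.24, FDR = 0.000373). None of these 12 sites lost its call when any 1 library was left out.

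**Figure D3:**
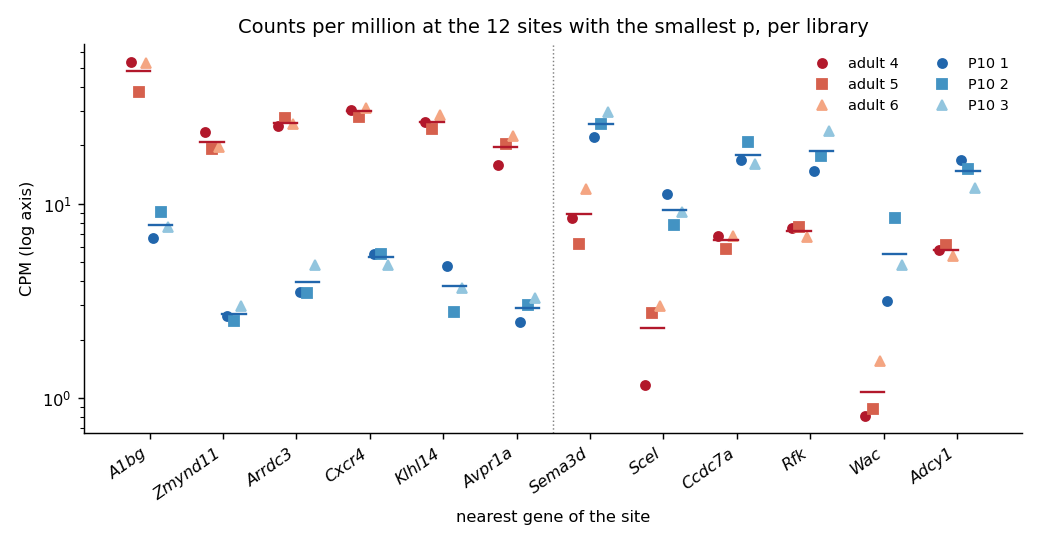
CPM on a log axis in each of the 6 libraries at the 12 intergenic sites with the smallest p-values among those without overlap of the groups, 6 Up on the left and 6 Down on the right, named by the nearest gene. Symbols are libraries (red adult, blue P10) and short lines are group means. The *A1bg* site runs from 6.65 to 53.8 CPM.

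Around genes of islet transcription factors, 22 of 41 genes had 268 intergenic sites at 100 to 500 kb, of which 43 were Up, 24 were Down and 201 passed neither (16% and 8.96%, median log2 fold change -0.04, beside 12.3%, 6.63% and -0.01 over all ACS). A site 375248 bp upstream of *Etv1*, which overlaps the listed gene *Dgkb*, rose from 2.55 ± 0.81 CPM at P10 to 10.2 ± 1.32 CPM in adults (SD, n = 3 each, log2 fold change 1.99, SE 0.29, FDR = 3.40e-05). Of the 17 sites of *Etv1*, 4 were Up and 2 Down, with a median of 0.09. The neighbouring genes *Irx1* and *Irx2*, homeobox factors, had 7 of 17 and 6 of 16 sites Up and none Down. The first *Irx2* site, 371308 bp from *Irx1* on its other side, had 13.9, 12 and 17.3 CPM in adults and 5.11, 4.35 and 3.81 CPM at P10 (log2 fold change 1.69, FDR = 3.82e-05). The promoter sites of *Irx1* and *Irx2* were not called, with log2 fold changes from -0.15 to 0.00.

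*Foxa1*, a pioneer factor of endoderm, had a distal and a promoter site that were both Up. The site 148698 bp upstream (chr6:88222938-88223421) had 13, 17.5 and 15.3 CPM in adults and 6.69, 6.85 and 7.14 CPM at P10 (log2 fold change 1.15, SE 0.22, FDR = 0.00112). One of its 2 promoter sites rose from 16.8 ± 2.01 CPM at P10 to 45.9 ± 6.52 CPM in adults (n = 3 each, log2 fold change 1.45, SE 0.18, FDR = 4.41e-06). The site 157884 bp downstream of *Nkx6-1*, a beta cell factor (chr14:9681753-9682546), had 52.0, 45.9 and 41.8 CPM in adults and 30.9, 23.1 and 23.7 CPM at P10 (log2 fold change 0.84, SE 0.17, FDR = 0.00177). Its promoter site stood at 36.5 ± 3.90 and 36.3 ± 6.57 CPM (n = 3 each).

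*Meis1* and *Meis2*, homeobox genes of the same family, carried sites of both directions, with 2 Up and 6 Down of 26 for *Meis1* and 3 Up and 9 Down of 35 for *Meis2*. The *Meis1* sites spanned log2 fold changes from -3.48, the lowest of all sites described here, to 1.28. One site of *Isl1* was Up (log2 fold change 1.02, SE 0.22, FDR = 0.00236), but of the 11 sites of this gene 1 was Down and the median was -0.25. *Myt1l* had 3 of 7 sites Up, the first at 0.96 (SE 0.20, FDR = 0.00248). With total reads the named sites of *Irx1* (0.54), *Meis1* (0.43), *Foxa1* (0.32), *Isl1* (0.16) and *Myt1l* (0.11) lost their calls. The Down count of the group was 12 without P10 replicate 2 or P10 replicate 3 and 15 with factors from TSS sites. *Tox3* had 5 of 27 sites Up and none Down, and *Nkx2-2* had 2 of 15 Down and none Up. The genes whose sites are counted one by one were picked from the list after their values were seen.

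Around genes of hormones, granules and secretion, 11 of 53 genes had 54 sites, with 9 Up and 7 Down. These were 16.7% and 13%, beside 12.3% and 6.63% over all ACS, and the median log2 fold change was -0.11. Of the 7 Down sites, 6 were at *Ins1* and 1 at *Pcsk2*. *Slc2a2*, the glucose transporter of beta cells, had 4 of 8 sites Up. The leading one, which overlaps the listed gene *Tnik*, had 18.5, 13.3 and 21.7 CPM in adults and 7.76, 4.92 and 5.87 CPM at P10 (chr2:133957380-133958200, log2 fold change 1.51, SE 0.24, FDR = 0.000124). A site upstream of *Syt13*, a synaptotagmin, rose from 16.5 ± 1.64 to 34.8 ± 6.82 CPM (n = 3 each, log2 fold change 1.08, FDR = 0.000333). With total reads the *Slc2a2* (0.64) and *Syt13* (0.24) sites lost their calls. The group had 5 Up sites without P10 replicate 2 and 3 Down sites without P10 replicate 3.

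*Ins1*, one of the rat insulin genes, had 6 of 16 distal sites Down and 1 Up. The first of them, 197319 bp upstream (chr1:280015928-280016296), was a weak site with 0.271, 0.779 and 0.773 CPM in adults and 2.09, 3.71 and 2.96 CPM at P10 (log2 fold change -2.28, SE 0.46, FDR = 0.00152). The *Ins1* promoter site was Down as well, at 88.1 ± 11.3 CPM in adults and 148 ± 50.1 CPM at P10 (n = 3 each, log2 fold change -0.75, SE 0.18, FDR = 0.00742).

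Weaker calls in this group were those of *Npy*, a neuropeptide (log2 fold change 0.58, FDR = 0.0473), and of *Cacna2d1*, a calcium channel subunit (0.77, FDR = 0.0545). At both sites the groups overlapped, and the call was lost without P10 replicate 2 (log2 fold change 0.41) and without adult replicate 6 (0.61), respectively. The *Cacna2d1* site is only 65754 bp from the listed gene *Pclo*. A site of *Pcsk2*, a prohormone convertase, was called Down (-0.78, SE 0.33, FDR = 0.157) with overlapping groups, and kept its call in 2 of 6 fits that left out 1 library (-0.57 without adult replicate 5, -0.77 without adult replicate 6, -0.58 without P10 replicate 1 and -0.81 without P10 replicate 3).

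Around genes of immaturity and proliferation, 23 of 51 genes had 219 sites, 31 Up and 16 Down (14.2% and 7.31%, median 0.01), which is near the background. The Down count moved with single libraries, to 5 without adult replicate 4, 26 without P10 replicate 1 and 6 without P10 replicate 2 or P10 replicate 3, and it was 9 with factors from TSS sites. *Sox4*, a developmental factor, had 8 of 34 sites Up and 2 Down. Its first site, 166901 bp upstream (chr17:39309808-39310055), had 17.4, 15.8 and 16.1 CPM in adults and 3.53, 4.78 and 5.55 CPM at P10 (log2 fold change 1.83, SE 0.24, FDR = 9.85e-06). The other named sites of this group were also Up, each being the called site of smallest p at its gene. Each of them lost its call with total reads. They were those of *Cdkn2b*, a cell cycle inhibitor (log2 fold change 1.06, FDR = 0.00167), *Fgf20*, a growth factor (1.01, FDR = 0.00208), *Myc* (1.05, FDR = 0.00247), *Hes1*, a target of Notch (0.81, FDR = 0.00331), *Prlr*, the prolactin receptor (1.20, FDR = 0.00663), *Ghr*, the growth hormone receptor (1.26, FDR = 0.00955), and *Nfib* (1.02, FDR = 0.0106). At *Nfib* both promoter sites were Down (-0.75, FDR = 0.0535, and -0.53, FDR = 0.163). Over all sites of a gene the median was 0.36 at *Cdkn2b*, 0.16 at *Hes1*, 0.54 at *Ghr* and 0.06 at *Myc*. It was -0.41 at *Fgf20*, -0.14 at *Prlr* and -0.07 at *Nfib*. Among genes without a named site, 5 had 1 site Down and none Up, with 6.63% Down over all ACS. They were *Ccnd2* (1 of 15 sites), *Cdk6* (1 of 6), *Jag1* (1 of 5), *Mki67* (1 of 10) and *Mycn* (1 of 11). *Cdk1* had 1 Up and none Down of 8, and *Fgf10*, *Hmga2*, *Nfia* and *Sox11* had both.

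The other gene groups are set beside the 12.3% Up and 6.63% Down of all ACS. Genes named singly in these groups were picked after their values were seen. Nuclear receptors and clock genes had 20 Up and 8 Down of 149 sites (13.4% and 5.37%). *Nr1d2*, a repressor of the clock, had 6 Up and 1 Down of 17 (median near 0), and *Nr5a2* had 1 Up and 3 Down of 16. The Up count of the group was 10 to 13 without adult replicate 4, adult replicate 6, P10 replicate 2 or P10 replicate 3. The Down count of the group was 4 or 5 without adult replicate 6, P10 replicate 2 or P10 replicate 3. Developmental transcription factors had 71 Up and 28 Down of 415 (17.1% and 6.75%, median 0.09). *Satb1*, a chromatin organizer, had 6 Up and none Down of 14. In the other direction, *Pax1* had none Up and 3 Down of 9, and *Foxc1* none Up and 2 Down of 5. The Up count of these factors was 45 without adult replicate 4 and 45 without P10 replicate 2. Their Down count was 16 without P10 replicate 2 or P10 replicate 3. Cell adhesion and axon guidance genes, the largest of the gene groups, had 91 Up and 52 Down of 712 (12.8% and 7.30%, median near 0). There the genes went different ways, with 6 of 7 sites Up at *Cdh2* and 6 of 19 at *Ntm*, but 6 of 11 Down at *Flrt3* and 4 of 15 Down at *Tenm3*. The Down count of the group was 31 without P10 replicate 2 and 25 without P10 replicate 3. Ion channel and neurotransmitter receptor genes had 48 Up and 25 Down of 352 (13.6% and 7.10%), with 15 Down without P10 replicate 2.

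Sites near marker genes of other cell types were few. Endothelial genes (8 of 22 had sites) had 9 Up and none Down of 42 sites (21.4% Up). Of these Up sites, 4 were at *Ets1* and 3 at *Cdh5*. On the immune list only *Runx1*, 1 of 24 genes, had sites, with 2 Up and none Down of 7 (28.6% Up). Mesenchymal genes (14 of 28) had 12 Up and 8 Down of 74 (16.2% and 10.8%). Acinar genes (5 of 27) had 2 Up and none Down of 28 (7.14% Up). Duct genes (3 of 18) had 2 Up and 1 Down of 18 (11.1% and 5.56%). Schwann and neural crest genes (2 of 13) had none Up and 2 Down of 14 (14.3% Down), both at *Ednrb*. The mesenchymal Down count was 4 without adult replicate 4 or P10 replicate 3 and 3 without adult replicate 5. The acinar Up count ran from 0 without adult replicate 4 or P10 replicate 3 to 4 without adult replicate 5. The other small counts moved by at most 2 sites when a library was left out. Receptor genes with the symbols Olr, Vom1r and Vom2r (olfactory and vomeronasal) were the nearest genes of 473 sites, 22 Up and 19 Down (4.65% and 4.02%). These counts depended on single libraries and on the scaling. Up sites numbered 68 without adult replicate 4, 12 without P10 replicate 2 or 3 and 47 with factors from TSS sites. Down sites numbered 30 without adult replicate 5, 12 without P10 replicate 2, 8 without P10 replicate 3 and 31 with column sums.

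Sites close to each other tended weakly to change together. Neighbouring sites no more than 2 kb apart (4019 pairs) had a Pearson correlation of log2 fold changes of 0.22, which fell to 0.13 at 2 to 10 kb, 0.10 at 10 to 50 kb and 0.05 beyond 50 kb. These are correlations across pairs of sites of the same 6 libraries, and without the 17 crowded loci described further on the first value was 0.20 (3403 pairs, 87 of 104 called pairs of the same direction). Where both of a pair were called, 92 of 109 pairs (84.4%) within 2 kb had the same direction, and 179 of 267 (67.0%) beyond 50 kb. Since 69.0% of the called sites were Up, many called pairs share a direction at any distance. The median gap between neighbouring sites was 15671.5 bp.

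Summed over all sites of a nearest gene, 681 of 3203 loci (21.3%) were Up and 158 (4.93%) Down, against 12.4% and 7.12% over all sums of nearest gene and position class. Such sums have larger counts the more sites they hold, and of the 1726 loci with 5 or more sites 26.2% were Up. Without P10 replicate 2 the loci came to 390 Up and 71 Down, without P10 replicate 3 to 92 Down and without P10 replicate 1 to 269 Down. Of 1127 nearest genes with 2 or more called sites, 450 had Up sites only, 101 had Down sites only, and 576 had both.

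The locus with the smallest p-value was *Avpr1a*. Its 5 sites summed to 101, 79.2 and 104 CPM in adults and 29.0, 28.0 and 34.4 CPM at P10 (log2 fold change 1.64, SE 0.15, FDR = 6.76e-07). All 4 upstream sites, from 257.1 to 479.2 kb, were Up, and the single downstream site was not called. *Cttnbp2nl*, whose product binds cortactin, followed with 3 of 5 sites Up, and its sum was 43.9 ± 0.913 CPM in adults and 15.2 ± 0.58 CPM at P10 (n = 3 each, log2 fold change 1.53, FDR = 1.98e-06). At *Strit1*, a small membrane protein that acts on the calcium pump of muscle, and at *Ghitm*, a mitochondrial protein, 2 of 5 and 3 of 5 sites were Up, with summed log2 fold changes of 1.11 (FDR = 3.55e-05) and 1.17 (FDR = 5.03e-05). With total reads as library size the sums of *Strit1* (0.28) and *Ghitm* (0.36) were no longer called.

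The Down loci changed less. At *Or1j21*, an olfactory receptor whose symbol lies outside the receptor group counted above, all 8 downstream sites were lower in adults and 4 were called, with sums of 16.6, 13.6 and 19.9 CPM in adults and 30.4, 39.0 and 27.9 CPM at P10 (log2 fold change -0.96, SE 0.18, FDR = 0.00163). *Btbd3*, a factor of dendrite orientation, had 7 of 19 sites Down and none Up, with 75.6 ± 9.94 CPM in adults and 115 ± 14.2 CPM at P10 (n = 3 each, log2 fold change -0.61, FDR = 0.00917). *Dmrta2*, a developmental factor, and *Bcas1*, a protein of myelinating cells, each had 2 Down sites, with summed log2 fold changes of -0.67 (FDR = 0.00723) and -0.61 (FDR = 0.0139).

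**Figure D4:**
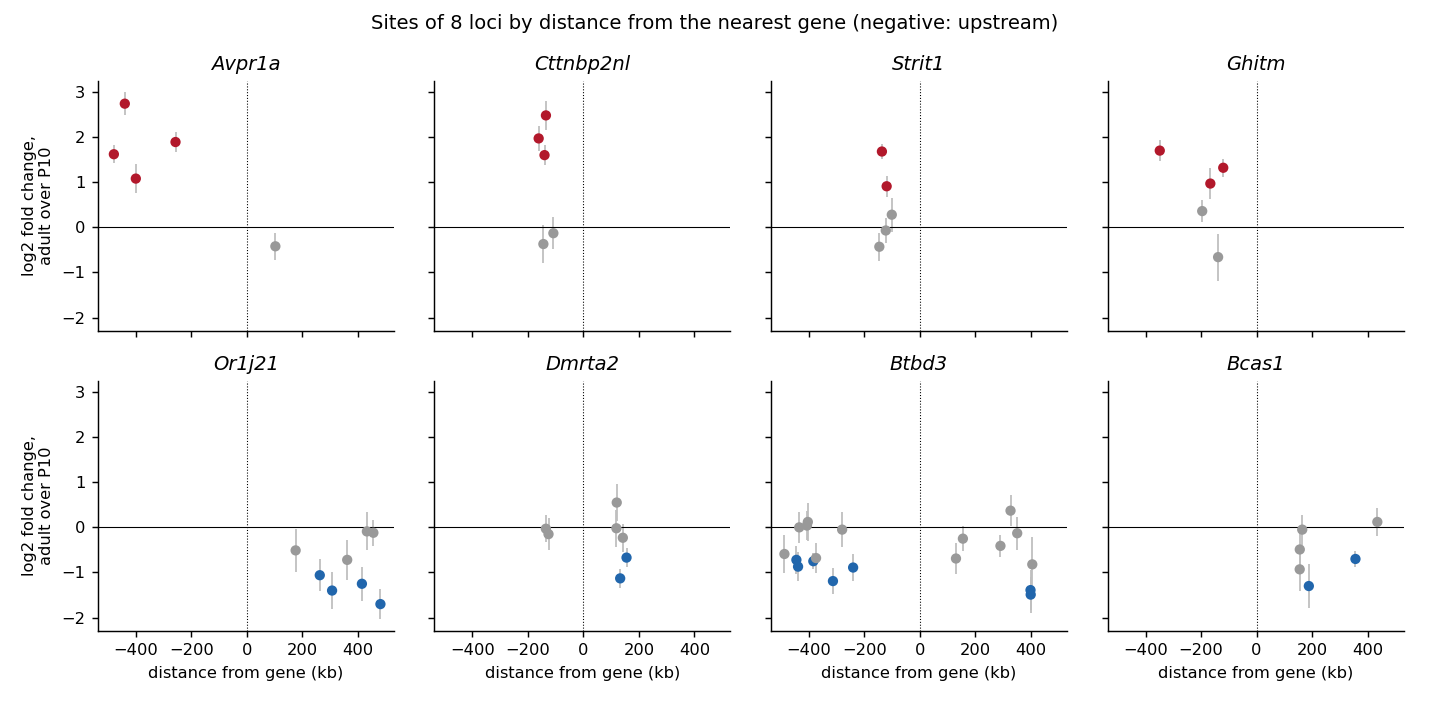
Log2 fold change of adult over P10 (with its standard error) of each intergenic site at 8 loci against its distance from the nearest gene in kb, negative for upstream. Red points are Up, blue points Down and grey points not called. At *Avpr1a* the 4 upstream sites are all Up, and at *Or1j21* all 8 sites lie below 0.

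Of the 4 Down loci, *Or1j21*, *Btbd3* and *Bcas1* are on chromosome 3, and this chromosome stood apart as a whole. Of its 1282 intergenic sites at 100 to 500 kb, 122 (9.52%) were Up and 186 (14.5%) Down, with a median log2 fold change of -0.144. All ACS on the chromosome behaved alike (7.99% Up, 13.8% Down), its TSS sites included (1.01% Up, 16.2% Down). It took 4.52%, 4.27% and 4.01% of the integrations in the intergenic sites in adult libraries and 4.93%, 4.85% and 4.78% in P10 libraries, without overlap (exact permutation p = 0.1, the smallest possible). The part of this shift in the Down calls of *Or1j21*, *Btbd3*, *Bcas1* and *Pcsk2*, which are all there, was not tested. Off chromosome 3 the sites had 13.9% Up and 5.68% Down.

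On the other chromosomes Up sites ran from 4.90% on X to 22.8% on chromosome 18, and Down sites from 1.46% on chromosome 19 to 8.82% on X. The 714 sites on X had a median log2 fold change of -0.181, against 0.046 on the autosomes, beside 6.88% Up and 9.20% Down over all ACS on X. The adults were all male and the pups of both sexes, so age and sex cannot be told apart there.

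The called sites were set beside other sites of the same gene. Of the 3240 Up sites, 2119 had a nearest gene with a TSS site, and at 6.84% of these a TSS site was Up and at 5.43% one was Down. Of the 1456 Down sites, 931 had a gene with a TSS site, which was Up at 3.76% and Down at 12.5%. For sites passing neither test the shares were 4.84% and 7.89%. Several sites can share a nearest gene, so these shares are not over independent genes. An intergenic site up to 100 kb from the same gene was Up for 56.9% of the Up sites, 41.5% of the Down sites and 45.9% of the others, and one was Down for 25.4%, 35.1% and 28.7%.

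A small number of loci held many sites each and were uneven between replicates. At 17 nearest genes, 50 or more sites crowded together, in all 1206 sites, and they took 8.88%, 13.8% and 11.2% of the integrations in the intergenic sites in adults and 9.94%, 10.9% and 11.6% at P10. *Dazl* had 98 sites over 315 kb with a median gap of 1102 bp. They summed to 1840, 2910 and 1640 CPM in adults and 1240, 1800 and 2180 CPM at P10, so that the groups overlapped (log2 fold change 0.29, SE 0.24, FDR = 0.516). *LOC100360856* with 91 sites (0.02, SE 0.23) and *Man2b1* with 84 (0.24, SE 0.22) were not called either.

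The libraries departed in common patterns at these loci. Adult replicate 5 was the highest adult library at *Dazl*, *LOC100360856*, *Vom2r9*, *Lzts1* and *Gad2* among others, by up to 2.23 times the lowest adult library. Adult replicate 6 was the highest at *Man2b1*, *LOC100359783*, *Inpp4b* and *Clvs2*. Of the 1206 sites, 79 were Up and 8 Down (6.55% and 0.663%). The 3 intergenic sites with the highest mean CPM, near *Emr4*, *Gad2* and *Brca2*, belong to these loci, and none was called. The one near *Emr4*, an adhesion receptor of myeloid cells, had 431, 444 and 262 CPM in adults and 232, 355 and 461 CPM at P10. Without the 17 loci, left out after the data were seen, the intergenic sites had 3161 Up and 1448 Down. They held 16.3% ± 0.522 of the integrations in adults against 15.3% ± 0.589 at P10 (n = 3 each). The groups no longer overlapped (exact permutation p = 0.1, the smallest possible), but only barely. The lowest adult share and the highest P10 share both rounded to 15.9%. The log2 ratio of these integrations to those in intergenic sites up to 100 kb still overlapped between the ages. It was -0.698 ± 0.0501 in adults and -0.752 ± 0.0787 at P10 (n = 3 each, exact permutation p = 0.4). How these loci come to hold so many sites was not tested.

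**Figure D5:**
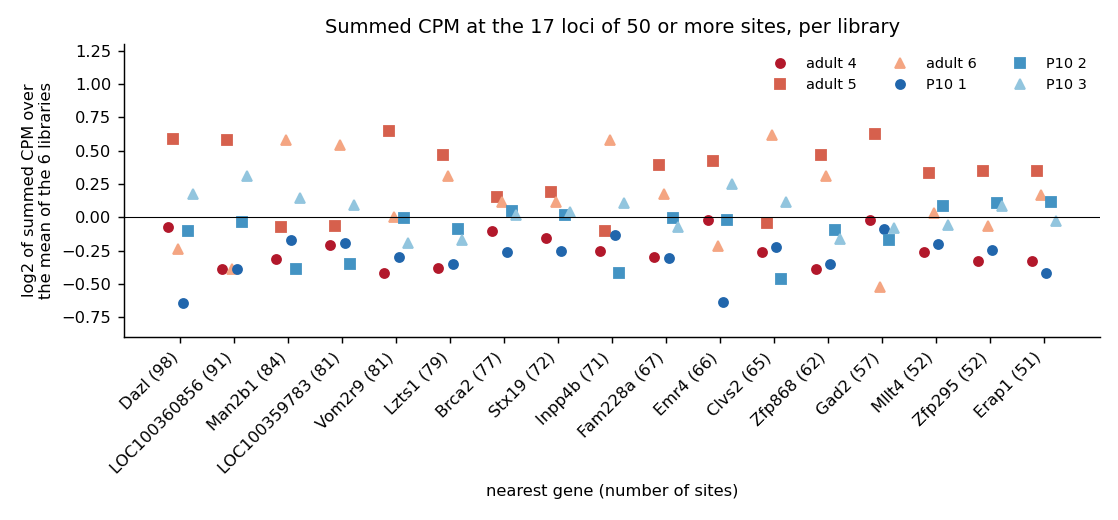
Log2 of the summed CPM of each library over the mean of the 6 libraries at the 17 nearest genes with 50 or more intergenic sites (number of sites in brackets). Red symbols are adult and blue symbols P10 libraries. Adult replicate 5 is highest at *Dazl* and adult replicate 6 at *Man2b1*, and the ages overlap at both.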

How the data were processed

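Islet ATAC-seq libraries of 3 adult rats and 3 P10 litters were analysed. The authors aligned reads to Rn5 with BWA 0.7.13, dropped reads that were mitochondrial or mapped poorly, ran MACS2 2.1.1 on the joined libraries of each age and merged the peaks. The deposited values are raw integration counts of every ACS in each library, without normalization. Duplicate removal is not given in the sources used here. The deposited table also holds the authors' own test (fold change, p-value, FDR), which was not used. 0 count columns were left out. Repeated listings of an ACS entered once.

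All 101603 ACS were fitted with edgeR 4.0.16 in R 4.3.3 (TMM factors, quasi-likelihood test, age as the only term, Benjamini-Hochberg adjustment), and positive log2 fold changes are higher in adults. Called sites had p under 0.05 and FDR under 0.2. SE is the log2 fold change divided by the root of F. Counts summed by nearest gene and position class (34339 sums) were tested likewise. Library-level values were tested by exact permutation of the libraries. The script was tested on simulated counts.

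Replicate pairs differed beyond counting noise (chi-square per degree of freedom 3.20 to 6.96), so each library counted as 1 sample. Named sites were the 6 Up and 6 Down with the smallest p without overlap of the groups, the 3 highest, the 8 of smallest p in the first 3 gene groups with at most 1 per gene, the 4 Up and 4 Down loci of smallest p with 5 or more sites, and the 3 loci with most sites. The members and lists were chosen with earlier results of these data known. Gene names missing from the table came from RefSeq (GRCr8) by gene ID, which found 3161 of the 3203 nearest genes. Alternatives were other scalings (column sums, median of ratios, total reads, factors from TSS sites), limma voom 3.58.1, DESeq2 1.42.0, a filter on low counts (minimum count 10, total 15), a mean of at least 50 counts, FDR under 0.05, distance from the gene start, no chromosome X and each library left out. Chosen after seeing the data were sites with no listed gene within 100 kb (gene models over 3 Mb not used), no chromosome 3, and no loci of 50 or more sites. Figures were drawn with matplotlib 3.10.9.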

Additional observations from a re-analysis of the deposited data

How the results depend on the processing

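Scaling moved the counts most. Column sums gave a median log2 fold change of -0.055 for the intergenic sites, factors from TSS sites 0.134 (964 Down), and total reads -0.786 (331 Up, 12732 Down). An FDR under 0.05 left 1925 Up and 456 Down, and of the 12446 sites with a mean of at least 50 counts 728 were Down. Leaving out 1 library at a time gave 2151 to 3410 Up, 727 to 1708 Down and a median of -0.012 to 0.090. The lowest counts came without P10 replicate 2 (2151 Up, 727 Down), and without P10 replicate 3 there were 749 Down. Summed loci came to 324 Down with column sums, 104 Down with TSS factors and 9 Up with 2302 Down with total reads, and to 390 to 804 Up and 71 to 269 Down with 1 library left out. With total reads the log2 fold change turned at the sites of *Emr4* (-0.64), *Gad2* (-0.71), *Brca2* (-0.55), *Nkx6-1* (-0.01), *Npy* (-0.31), *Cacna2d1* (-0.05) and *Hes1* (-0.05). Total reads also ended the calls at *Irx1*, *Meis1*, *Foxa1*, *Isl1*, *Myt1l*, *Slc2a2*, *Syt13*, *Cdkn2b* (0.20), *Fgf20* (0.15), *Myc* (0.23), *Prlr* (0.37), *Ghr* (0.36) and *Nfib* (0.17). The fold change also turned at *Gad2* with column sums (-0.02) and without P10 replicate 1 (-0.17), and at *Emr4* without adult replicate 5 (-0.01) or P10 replicate 1 (-0.12), and with 1 library left out *Gad2* ran from -0.17 to 0.28 and *Emr4* from -0.12 to 0.36. The cause was not tested. Median of ratios, voom, DESeq2, the low-count filter and leaving out chromosome X or 3 kept both counts of called sites within 1.5 times. No paired analysis was possible because no pairing is stated between the adult rats and the pup litters. Low counts went with few Up calls at sites with a mean under 20. The counts of gene groups under total reads (mostly Down) are not repeated here.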
